A study of Homo sapiens with 4 samples.

Results

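The broad promoter sites common to both SF-1 dosages were 1470 pairs, each made of a FAIRE site called at basal SF-1 expression and a FAIRE site called on SF-1 overexpression. FAIRE recovers DNA that is not crosslinked to nucleosomes, so a FAIRE site marks accessible chromatin. The pairs were selected on their positions and widths: both sites overlapped by at least 1 bp, both were at least 399 bp wide, and the centre of the basal site lay within 1 kb of a start of a protein-coding transcript. They made up 7.86% of the 18699 overlapping pairs on chromosomes 1 to 22 and X, 19.4% of the 7565 shared pairs at promoters and 62.4% of the 2357 shared pairs of this width. For comparison, 40.5% of all overlapping pairs lay at promoters.

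The cells were H295R/TR SF-1, a subclone of the H295R adrenocortical tumour line in which doxycycline induces SF-1 (NR5A1), the nuclear receptor that directs adrenal and gonadal steroid production. The basal condition had no doxycycline, the overexpression condition had doxycycline for 3 days, and both came from the same inducible subclone. There was 1 FAIRE library per condition, the input libraries were not used here, and read depth is unknown. No difference between the conditions therefore has a replicate check, and no test between them was made. Intervals are 95% intervals that cover counting error only, and sites of 1 library are not replicates. Expression was not measured in these libraries, so the identity of the cells was not checked against marker genes.

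Most promoters of widely expressed genes are rich in GC and in CpG, lack a TATA box and keep a stretch without nucleosomes around the transcription start. At bidirectional promoters 1 such stretch serves divergent starts of neighbouring genes on opposite strands. Factors that bind these stretches include the CCAAT-binding trimer NF-Y, zinc finger proteins of the SP/KLF family that bind GC boxes, and ETS proteins, whereas SF-1 binds as a monomer to an extended nuclear receptor half-site.

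Sequence at these promoters is shown first, because the results turn on the motifs in it. Letters in capitals mark motif matches on either strand, and no 2 printed matches overlap. The motifs were CCAAT followed by C or G and then A or G for NF-Y, GGGGCGGGG for SP/KLF, GCATGCGC for NRF1, a regulator of nuclear genes for mitochondria, and CAAGGTCA or CAAGGCCA for SF-1. All coordinates are on GRCh37 (hg19). The first set is the whole stretch between the divergent starts at 2 of the widest bidirectional members, shown because they carry a match. They lie between GYS1, muscle glycogen synthase, and RUVBL2, a AAA+ ATPase of chromatin remodelling complexes (chr19:49496568-49496818, plus strand), and between the mitochondrial protease LONP1 and CATSPERD, a subunit of a sperm ion channel (chr19:5720584-5720647, plus strand). Neither stretch contains an annotated exon.
GYS1 to RUVBL2: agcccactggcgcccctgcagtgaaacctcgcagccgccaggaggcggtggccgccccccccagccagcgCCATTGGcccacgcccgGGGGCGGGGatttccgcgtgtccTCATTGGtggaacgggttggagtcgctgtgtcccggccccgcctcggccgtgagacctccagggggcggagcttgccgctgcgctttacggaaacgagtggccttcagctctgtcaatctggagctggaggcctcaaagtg
LONP1 to CATSPERD: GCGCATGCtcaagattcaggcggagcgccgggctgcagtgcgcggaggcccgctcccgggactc

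The next set is the 150 bp before the nearest start at 4 members that belong to genes of cholesterol synthesis. Each of these has 1 NF-Y match there, whereas the same stretch at NSDHL, of the same pathway, had none and is not printed. NSDHL did have a match in the 400 bp centred on its basal site. CCAAT runs followed by other letters, as in the MMAB stretch, were not counted. The set also has FDXR, the only steroidogenic gene with a member. FDPS makes farnesyl diphosphate (chr1:155278389-155278538, plus strand), HMGCS1 is HMG-CoA synthase (chr5:43313615-43313764, minus strand) and IDI1 is isopentenyl diphosphate isomerase (chr10:1095060-1095209, minus strand). The MMAB stretch (chr12:110011386-110011535, minus strand) belongs to the promoter that MMAB, an enzyme of cobalamin metabolism, shares with mevalonate kinase, MVK. FDXR (chr17:72869157-72869306, minus strand) encodes ferredoxin reductase, which passes electrons towards mitochondrial steroid hydroxylases, and its stretch holds 3 SP/KLF matches.
FDPS: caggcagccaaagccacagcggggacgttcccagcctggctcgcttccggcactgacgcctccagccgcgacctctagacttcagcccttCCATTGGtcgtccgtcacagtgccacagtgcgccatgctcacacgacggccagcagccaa
HMGCS1: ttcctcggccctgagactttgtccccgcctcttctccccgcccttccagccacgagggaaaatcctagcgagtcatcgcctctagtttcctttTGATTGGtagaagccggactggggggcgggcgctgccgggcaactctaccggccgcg
IDI1: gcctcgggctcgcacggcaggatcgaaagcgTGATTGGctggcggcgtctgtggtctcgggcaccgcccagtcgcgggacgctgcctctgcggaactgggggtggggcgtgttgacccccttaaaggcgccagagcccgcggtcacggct
MMAB: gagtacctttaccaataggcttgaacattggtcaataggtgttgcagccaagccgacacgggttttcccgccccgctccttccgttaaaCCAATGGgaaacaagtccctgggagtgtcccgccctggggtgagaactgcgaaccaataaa
FDXR: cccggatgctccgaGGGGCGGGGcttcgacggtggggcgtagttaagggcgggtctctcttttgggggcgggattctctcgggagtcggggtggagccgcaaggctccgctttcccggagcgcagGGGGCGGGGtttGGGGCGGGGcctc

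The last set is 28 bp around the SF-1 match at 2 of the 50 members that have one, both lying upstream of the start. KMT5C (chr19:55850816-55850843, plus strand) encodes a histone H4 methyltransferase and BRPF1 (chr3:9773073-9773100, plus strand) a scaffold of histone acetyltransferase complexes.
KMT5C: ggagctgtccCAAGGCCAggcaatcata
BRPF1: cctccgagacCAAGGCCAggtccctccc

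The members belonged to 1782 protein-coding genes, 8.87% of the 20098 examined. A total of 1147 members had starts of 1 coding gene within reach, 299 had starts of 2 genes and 24 of 3 or more. The basal sites were all distinct, and the pairs used 1469 overexpression sites, since 1 overexpression site at TMED1 overlapped 2 basal sites. The median distance from the basal centre to the nearest start was 124 bp, and 97.2% of members lay within 500 bp. A coding start was covered by the basal site in 91.2% of members and by the overexpression site in 91.8%, against 76.6% of the basal sites in the 6095 narrower shared promoter pairs. Wide sites centred near a start cover it more often by construction, so these shares are a description.

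Widths, which chose the members, are given as a description. Site positions lay on a grid of 50 bp, so a difference of 50 bp is 1 grid step. Basal sites had a median width of 449 bp (quartiles 399 and 549 bp, largest 1399 bp), and overexpression sites one of 499 bp (quartiles 449 and 549 bp, largest 1599 bp). Just inside the limit, 531 members had a narrower site of 399 bp, and just outside it 973 shared promoter pairs had a narrower site of 349 bp. A further view of the limit is that 459 shared promoter pairs were broad in the basal list only and 807 in the overexpression list only. On the distance limit, 7 members had their centre 900 to 1000 bp from a start and the farthest was at 998 bp, whereas 3 broad pairs fell between 1000 and 1100 bp, the nearest of them at 1022 bp.

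The overexpression site was wider than its basal partner in 596 members (40.5%, 38.0 to 43.1%), had the same width in 506 (34.4%) and was narrower in 368 (25%, 22.8 to 27.3%). The mean change was 17.8 bp (SD 99.7 bp across members), with a median of 0 and a range from -400 to 800 bp. A single step of 50 bp upward was seen in 327 members and one downward in 240. Narrower shared promoter pairs had 43.0% wider and 28.3% narrower, whereas the 887 broad shared pairs away from coding starts had 30.7% wider and 40.8% narrower. A change of at least 100 bp upward was found in 269 members (18.3%), beside 16.0% of all overlapping pairs, and one of at least 100 bp downward in 128 members (8.71%), beside 17.6% of all overlapping pairs. Width entered the choice of members, so nothing is read from these shares.

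**Figure D1:**
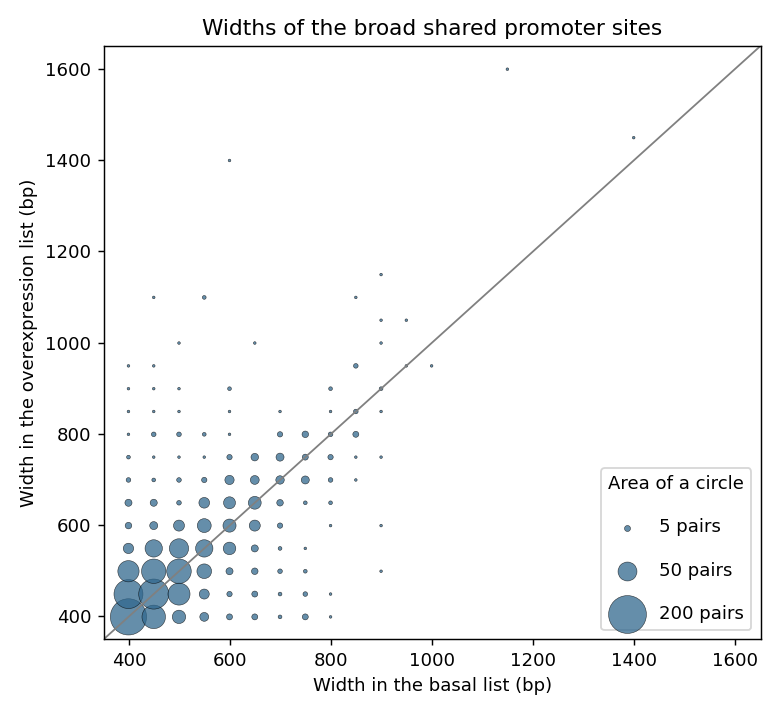
Width in the overexpression list (vertical axis, bp) against width in the basal list (horizontal axis, bp) for the 1470 broad shared promoter sites; the area of each circle gives the number of pairs at that pair of widths and the line marks equal width. Most pairs sit near the lower left corner, 596 lie above the line, 506 on it and 368 below it.

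Individual sites moved little in most members. The start and end were the same in both lists in 358 members (24.4%), the overlap had a median of 88.9% of the stretch covered by either site, and it was under 50% in 27 members. The centre shifted by a median of 25 bp and by 100 bp or more in 123 members. Across members, Spearman's rho between basal and overexpression width was 0.605 (n = 1470), where both widths passed the same limit.

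The widest members illustrate the range. CCDC9 on chromosome 19 had a basal site of 1399 bp (47759651 to 47761049) and an overexpression site of 1449 bp (47759651 to 47761099). SETD5, which encodes a SET-domain protein, had widths of 1149 bp (basal) and 1599 bp (overexpression) on chromosome 3, with the basal centre at -924 bp from the nearest start. At the bidirectional promoter of TSEN34, a subunit of the tRNA splicing endonuclease, and MBOAT7, a phospholipid acyltransferase, the widths were 899 and 1149 bp. All 3 were thus wider in the overexpression list, and the SETD5 site there overlapped 2 basal sites. PLCD1, a phospholipase C, had 949 and 1049 bp. TSTD2, which shares a promoter with NCBP1, the large subunit of the nuclear cap-binding complex, had 599 and 1399 bp, the largest gain of any member at 800 bp.

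Several large gains and losses coincided with the joining or splitting of neighbouring sites between the lists. Overexpression sites that overlapped 2 or more basal sites occurred in 15 members, and basal sites that overlapped 2 or more overexpression sites in 11. At TMED1, a trafficking protein of the early secretory pathway, 1 overexpression site of 1099 bp lay over basal sites of 449 and 549 bp, giving nominal gains of 650 and 550 bp. CDK19, a kinase of the Mediator complex, went from 399 to 949 bp, where the overexpression site also lay over 2 basal sites. PAFAH1B3, a catalytic subunit of platelet-activating factor acetylhydrolase, went from 549 to 1099 bp with 1 site in either list. In the other direction ZNF503 (799 to 399 bp), ZSCAN5A (899 to 499 bp), MIER1 (749 to 399 bp) and the centriole gene CEP120 (749 to 399 bp) each had a basal site that overlapped 2 overexpression sites. ERCC6L2 (749 to 399 bp) had 1 site in either list. A loss of 350 bp was found in 6 members and one of 400 bp in 2.

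The sites lay mostly upstream of the start. Of the 1192 members with nearby coding starts on 1 strand only, 1029 (86.3%) had the basal centre upstream, with a median offset of -127 bp. The median basal site of this group reached from 358 bp upstream to 108 bp downstream of the nearest start, and the median overexpression site from 362 bp upstream to 121 bp downstream. At the start itself 89.6% of basal and 90.4% of overexpression sites gave cover, and cover was highest 82 and 77 bp upstream, respectively. Cover was asymmetric: 300 bp upstream it was 70.1% and 69.7%, and 300 bp downstream 7.21% and 9.98%. The downstream edge lay further out in the overexpression list in 32.6% of these members and closer in 18% (mean outward shift 11.9 bp, SD 68.3 bp). For the upstream edge these shares were 28.7% and 26.8% (mean outward shift 1.13 bp, SD 72.4 bp). Width chose the members, so the edges are given as a description.

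**Figure D2:**
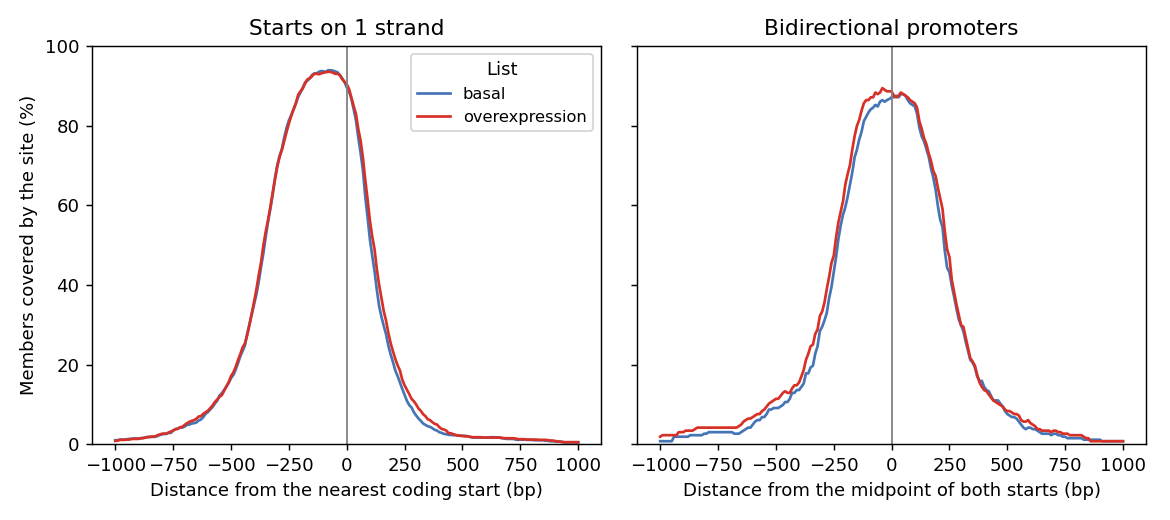
Percentage of members covered by the site at each distance (bp) from the nearest coding start for the 1192 members with starts on 1 strand (left; negative values are upstream) and from the midpoint of both starts for the 264 bidirectional members (right), in the basal and overexpression lists. Cover falls off steeply downstream of single starts, is close to symmetric at bidirectional promoters, and the lines of both lists nearly coincide.

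A bidirectional promoter, with divergent coding starts at most 1 kb apart, was found at 264 members (18%, 16 to 20%) and at 770 narrower shared promoter pairs (12.6%). The difference was 5.33 percentage points (Newcombe interval 3.26 to 7.53). When only gene 5' ends counted as starts, the share of members was 12.0% and the difference 2.05 points. Of the 5' ends of all coding genes, 12.9% were bidirectional by the same limit with every coding transcript start counted. This value stands beside the 18% of members, not the 12.0%, and it counts genes where the share of members counts sites. The starts were further apart in members, with a median gap of 198 bp (quartiles 94.5 and 340 bp), than in the narrower pairs, with 123 bp (68.0 and 217 bp). Gaps relate to width, which chose the members, and are given as a description. Both starts were covered by the basal site in 72.7% and by the overexpression site in 75.8% of bidirectional members.

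Bidirectional members had a mean basal width of 501 bp (SD 105) and a mean overexpression width of 536 bp (SD 145), and the other members 504 bp (SD 114) and 518 bp (SD 124). The overexpression site was wider in 46.6% (40.5 to 52.8%) of bidirectional members and in 39.2% (36.5 to 42.0%) of the others. After TSEN34 and TSTD2, the widest bidirectional members were AGPAT1, an enzyme of phosphatidic acid synthesis, with the ubiquitin ligase gene RNF5 (949 bp in both lists), OARD1 with NFYA, which encodes a subunit of NF-Y itself (799 and 849 bp), and TBC1D10B with MYL11, a myosin light chain (649 and 999 bp). The widths were thus equal at AGPAT1 and 350 bp apart at TBC1D10B, where the overexpression site overlapped 2 basal sites.

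Base composition was measured in 400 bp centred on the basal site, the same length in every set. Members had a mean GC content of 63.9% (SD 7.10), close to the 63.2% (SD 8.80) of narrower shared promoter pairs and above the 48.9% (SD 11.2) of broad shared pairs away from coding starts. A GC content of at least 60% was found in 71.6% of members and 68.5% of narrower pairs. This difference of 3.07 points (0.439 to 5.60) was not robust: it was 0.536 points when pairs had to lie within 500 bp of a start, and it changed sign to -1.03 when both sites had to be at least 499 bp wide and to -0.359 when sites within 500 bp were merged. The lower tail differed more, since 3.06% of members and 7.81% of narrower pairs had a GC content under 50% (difference -4.75 points, -5.79 to -3.55). CpG content, by the share at a fixed cut-off, separated the sets more than GC. The ratio of observed to expected CpG was at least 0.6 in 93.2% of members, 86.2% of narrower pairs (difference 6.96 points, 5.33 to 8.44), 22% of broad shared pairs away from coding starts and 60.7% of all coding 5' ends. The median CpG ratio was 0.845 in members and 0.833 in narrower pairs. The shares for CpG and for a GC content under 50% were not recomputed with other settings. Broad promoter sites called in 1 list only were fewer. The 62 called only in the basal list had a mean GC content of 53.8% and the 114 called only in the overexpression list 65.2%.

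The change of width varied with GC content. Of the 45 members with a GC content under 50%, the overexpression site was wider in 22.2% (11.2 to 37.1%) and narrower in 55.6% (40 to 70.4%). Of the 307 members with at least 70%, it was wider in 48.2% (42.5 to 54.0%) and narrower in 17.9% (13.8 to 22.7%). The 2 classes in between had 35.7% and 40.9% wider. The gradient was similar outside promoters: among broad shared pairs away from coding starts, 25.4% were wider under 50% GC and 48.1% at 70% or more. It was also similar in narrower shared promoter pairs, with 24.2% and 48.6% wider, so it was not particular to broad sites. Across members, Spearman's rho was 0.143 between GC content and the change of width, and -0.0847 between GC content and mean width (n = 1470). With 1 library per condition, a difference between the libraries and a difference in SF-1 dosage cannot be told apart in this gradient.

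**Figure D3:**
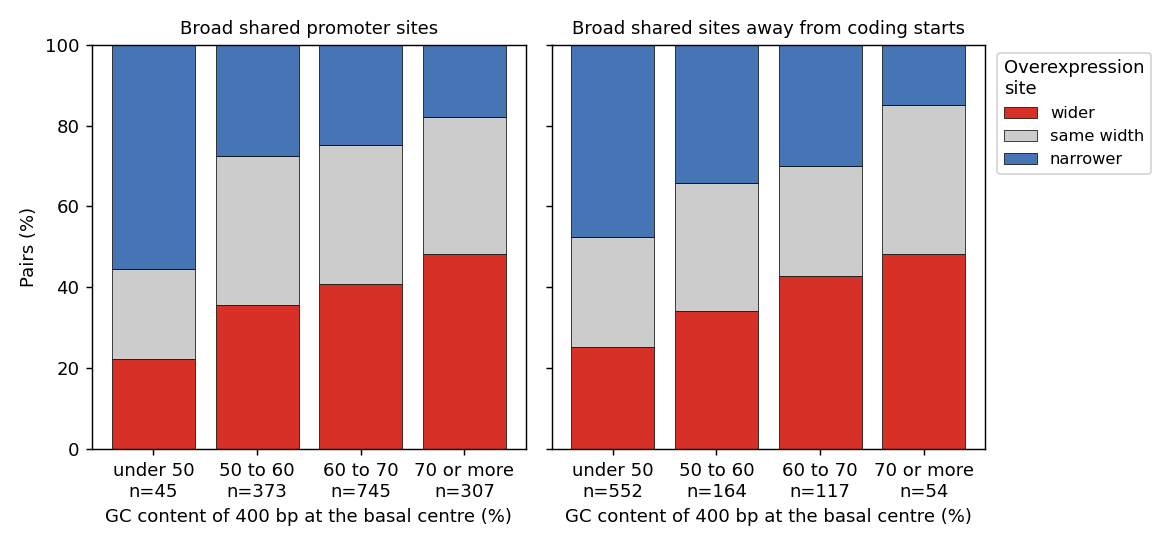
Percentage of pairs (vertical axis) whose overexpression site was wider than, equal to or narrower than the basal site, by GC content (%) of 400 bp at the basal centre, for the broad shared promoter sites (left) and for broad shared sites away from coding starts (right), with the number of pairs under each bar. Wider sites rise from 22.2% to 48.2% in members and from 25.4% to 48.1% away from coding starts.

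The NF-Y motif set the members apart most among the sequence motifs searched. It was found in 778 members (52.9%, 50.3 to 55.5%) within the same 400 bp, against 29.6% of narrower shared promoter pairs (difference 23.3 points, 20.5 to 26.1), 24.0% of broad shared pairs away from coding starts and 20.5% of windows of equal length at all coding 5' ends. It was also found in 14.5% of the broad promoter sites called only in the basal list and 17.5% of those called only in the overexpression list. Most of the excess was in repeated matches. Of the members, 27.1% had 2 or more NF-Y matches against 8.61% of narrower pairs (difference 18.5 points, 16.2 to 21.0), and 11.5% had 3 or more against 1.84%. The highest number was 6.

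The share with an NF-Y match increased with width over all shared promoter pairs. It was 23.1% where the narrower site of the pair was 99 to 199 bp wide, 30.5% at 249 to 299 bp and 41.1% at 349 bp, all outside the limit. Among the members it was 49.9% at 399 to 449 bp, 56.6% at 499 to 549 bp and 59.4% (52.6 to 65.9%) at 599 bp or more. The limit of 399 bp thus fell within a gradient and not at a step. With the window placed from 300 bp upstream to 100 bp downstream of the nearest start in place of the basal centre, the shares were 50.7% for members, 29.1% for narrower pairs and 21.0% for all coding 5' ends. Of 1372 matches within 500 bp of the nearest start in members, 1130 (82.4%) lay upstream, at a median of -102 bp, and the fullest 20-bp interval ran from -80 to -60 bp with 130 matches. Members with an NF-Y match were wider in the overexpression list in 39.7% of cases and those without one in 41.5%.

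**Figure D4:**
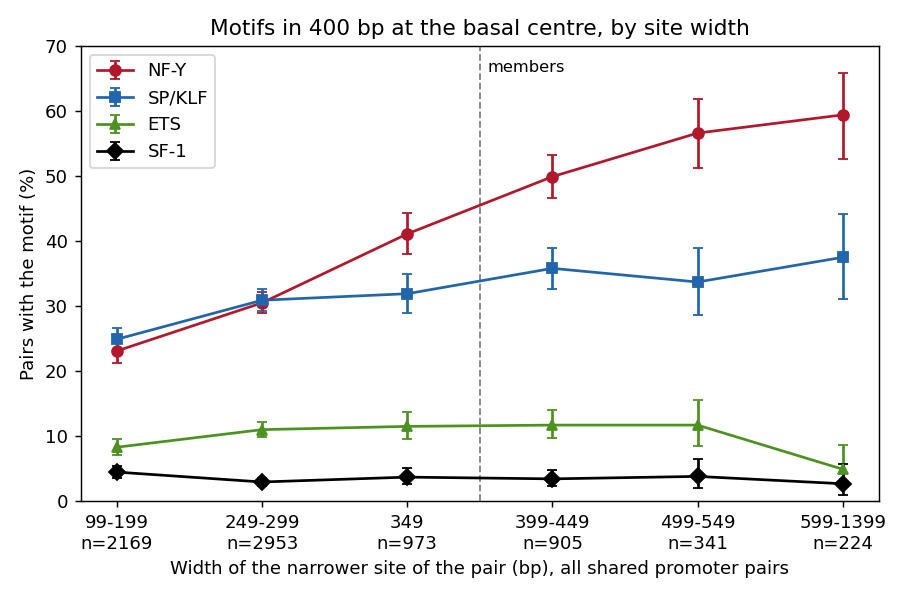
Percentage of shared promoter pairs with at least 1 match to the NF-Y, SP/KLF, ETS or SF-1 motif in 400 bp at the basal centre (vertical axis), by width of the narrower site of the pair (horizontal axis, bp), with exact 95% intervals and the number of pairs under each class; classes right of the dashed line are members. NF-Y rises from 23.1% to 59.4%, and SF-1 stays between 2.68% and 4.47%.

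The SF-1 motif was no more frequent in members than at other promoters. It was found in 50 members (3.40%, 2.53 to 4.46%) and in 3.61% of narrower shared promoter pairs (difference -0.208 points, -1.16 to 0.935), and 3.27% of windows at all coding 5' ends had it. In contrast, 24.8% of the broad shared pairs away from coding starts had an SF-1 match, so that members lay 21.4 points lower (18.5 to 24.5 points lower). The share was 14.0% in broad promoter sites called only in the overexpression list, which set the members at -10.6 points from them (-18.2 to -5.32), and 11.3% in those called only in the basal list. Of the 50 members with the motif, 22 (44%, 30.0 to 58.7%) were wider and 17 (34.0%, 21.2 to 48.8%) narrower in the overexpression list, with a mean change of 2.00 bp (SD 89.8). The widest were TOMM40, the pore of the mitochondrial outer membrane translocase (849 and 949 bp), ZNF444 (749 and 799 bp), KMT5C (749 bp in both), BRPF1 (649 and 749 bp) and the coding gene ENSG00000285542 near PPM1B (649 and 699 bp). The 5 were thus equal or up to 100 bp wider in the overexpression list. A match is a run of letters and does not show binding.

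The other motifs differed less between members and narrower shared promoter pairs. SP/KLF was found in 35.6% against 28.9% (difference 6.69 points, 4.02 to 9.41), with 21.7% at all coding 5' ends. The E-box of USF factors (TCACGTGA or TCACGTGG) was found in 6.80% against 5.18% (1.62 points, 0.303 to 3.12). AP-1 (TGACTCA or TGAGTCA) was rarer, in 2.31% against 3.90% (-1.59 points, -2.42 to -0.581), and it was found in 11.0% of broad shared pairs away from coding starts. ETS (CCGGAAGT) in 10.7% against 10.1% (0.557 points, -1.11 to 2.39), NRF1 in 8.30% against 7.89% (0.408 points, -1.07 to 2.06) and CREB/ATF (TGACGTCA) in 4.35% against 4.00% (0.350 points, -0.716 to 1.61) had intervals that included 0. The same held for YY1 (AAGATGGCG) in 4.49% against 5.09% (-0.596 points, -1.71 to 0.697) and for TCTCGCGA in 3.06% against 3.38% (-0.319 points, -1.22 to 0.777). A TATAAA run 20 to 40 bp before the nearest start was found in 12 members (0.816%), in 1.02% of narrower pairs and in 2.84% of all coding 5' ends.

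Gene classes were compared by the share of their genes with a member, against 8.87% of all coding genes. Genes of cholesterol synthesis and uptake had the highest share, 9 of 25 (36.0%, 18 to 57.5%). Chromatin remodelling and histone modifying genes had 13 of 50 (26.0%, 14.6 to 40.3%), chaperone genes 20 of 87 (23%, 14.6 to 33.2%), splicing factor genes 15 of 74 (20.3%, 11.8 to 31.2%) and cytosolic ribosomal protein genes 15 of 85 (17.6%, 10.2 to 27.4%). Cyclin and CDK genes had 12 of 48 (25%), given without an interval because the class was trimmed after values were seen. Open promoters are common in these classes, so the share of broad sites was also taken among genes with any shared promoter pair, where it was 22.7% for all coding genes. On this measure chaperone genes had 36.4% (23.8 to 50.4%) and cholesterol genes 39.1% (19.7 to 61.5%), chromatin genes 34.2% (19.6 to 51.4%), splicing factors 26.3% (15.5 to 39.7%) and ribosomal protein genes 22.7% (13.3 to 34.7%). Only the interval of the chaperone genes lay above the value of all coding genes among these 5 classes. Cyclin and CDK genes, again given without an interval, had 41.4% on this measure.

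**Figure D5:**
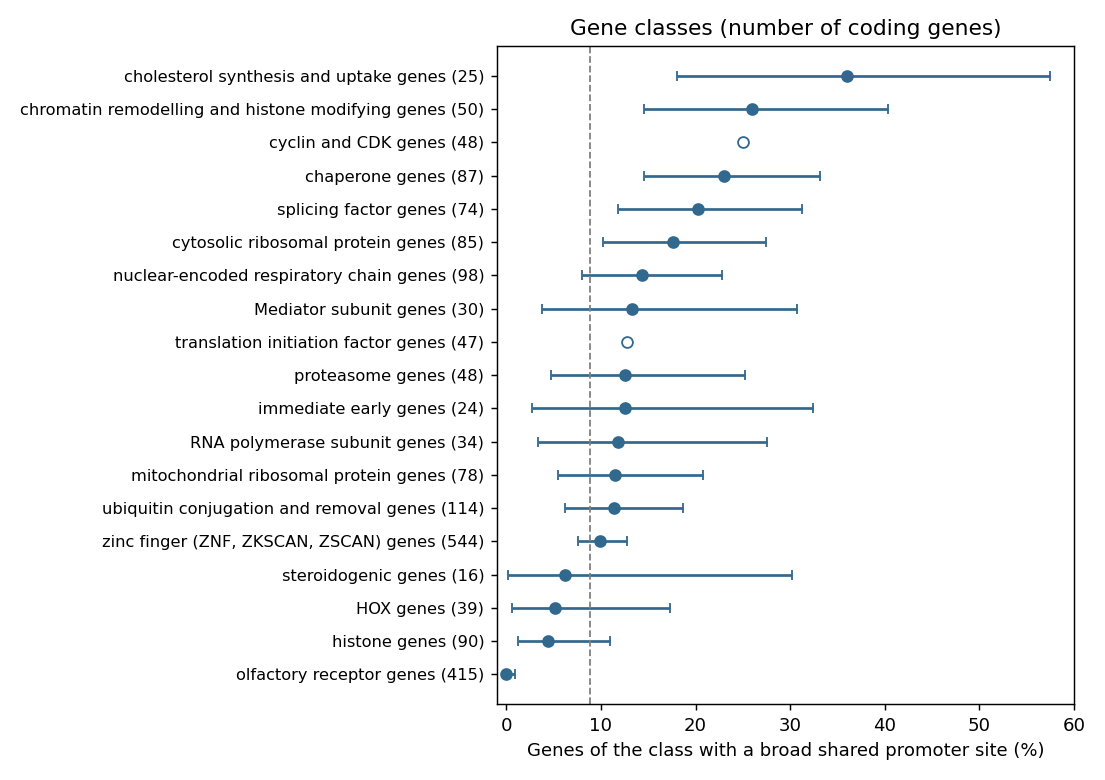
Percentage of the coding genes of each class with at least 1 broad shared promoter site (horizontal axis), with exact 95% intervals and the number of genes in parentheses; the dashed line marks 8.87% of all coding genes, and open circles without an interval are classes trimmed after values were seen. Cholesterol, chromatin, chaperone, splicing and cytosolic ribosomal protein genes have intervals above the line, and olfactory receptor genes have none of 415.

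At the 9 members of the cholesterol synthesis and uptake class, changes of width were mostly 1 grid step. HMGCS1 went from 799 to 599 bp, and FDPS had 499 and 399 bp. PMVK (549 and 499 bp), IDI1 (649 and 599 bp), MVK with MMAB (449 and 399 bp) and INSIG2, which retains the regulators of this pathway in the endoplasmic reticulum (499 and 449 bp), were each narrower by 1 grid step. The sterol dehydrogenase gene NSDHL (449 and 499 bp) was wider by 1 step, and SREBF2, the main transcription factor of the pathway, had 399 bp in both lists. Thus 6 of 9 were narrower, 1 was equal and 2 were wider, where 25% of all members were narrower. Of the 9 members, 7 had an NF-Y match, beside 52.9% of all members, and PMVK and INSIG2 had none. Width chose the members and the class has few sites, so nothing particular to it is read from these counts. Of the 16 steroidogenic genes 1 (6.25%, 0.158 to 30.2%) had a member, FDXR (449 and 499 bp). This interval included the 8.87% of all coding genes.

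Among the chaperones 11 sites were wider, 6 equal and 3 narrower on overexpression, and 14 of 20 had an NF-Y match. Over all members 40.5% were wider, 25% narrower and 52.9% had such a match, and with so few sites in a class nothing particular to it is read from its counts. HSPA5, the HSP70 of the endoplasmic reticulum, had 499 and 599 bp and stood at number 22 of the basal and 27 of the overexpression list. HSP90B1, the HSP90 of the same compartment, had 449 and 549 bp, the constitutive HSPA8 had 599 and 649 bp, and DNAJC3 had 499 bp in both. HSPA1B is nearly identical to a neighbouring copy, so its assignment is uncertain. Of the 13 chromatin genes, 8 were wider and 1 narrower, beside 40.5% and 25% of all members, among them SETD5, CHD8 (549 and 649 bp), BRD2, a reader of acetylated histones (599 and 699 bp), and SUZ12, a subunit of Polycomb complex 2 (449 bp in both). Splicing factors had 8 wider, 6 equal and 2 narrower sites, beside the same 40.5% and 25% of all members. HNRNPL had the widest of them at 899 bp in both lists, and HNRNPA1, which shares its promoter with CBX5, had 699 and 749 bp.

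Cytosolic ribosomal protein genes had 3 wider, 8 equal and 4 narrower sites, where 40.5% of all members were wider and 25% narrower. RPS19 fell from 799 to 449 bp and RPL32 from 549 to 399 bp, whereas RPL13A and RPS26 had 499 bp in both lists. The cyclin gene CCNB1 had 499 bp in both lists and CDK4 549 and 599 bp, at numbers 54 and 37. Of the nuclear-encoded respiratory chain genes 14 of 98 (14.3%, 8.04 to 22.8%) had a member, among them ATP5F1B, the catalytic beta subunit of ATP synthase (499 and 549 bp), and COX6B1 (399 bp in both). The 3 immediate early genes with a member, ATF3 (449 and 499 bp), JUN (399 and 449 bp) and JUND (399 and 549 bp), were wider, 2 of them by 1 grid step, where 40.5% of all members were wider, and made up 3 of 24 genes of this class (12.5%, 2.66 to 32.4%).

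The remaining classes of widely expressed genes had shares whose intervals included 8.87%. They were proteasome genes (6 of 48), Mediator genes (4 of 30), RNA polymerase genes (4 of 34), mitochondrial ribosomal protein genes (9 of 78) and ubiquitin conjugation and removal genes (13 of 114). Translation initiation factor genes, trimmed after values were seen, had 6 of 47. The widest member of each was found at PSMD8 (499 bp in both lists), at the promoter of MED19 (549 and 499 bp), and at POLR3GL, a subunit of RNA polymerase III (399 and 499 bp). The others were MRPL34 (599 and 549 bp), the ubiquitin-conjugating enzyme gene UBE2S (799 and 749 bp) and EIF5A (599 and 549 bp). Over the whole classes, ubiquitin genes had 7 wider, 3 equal and 3 narrower sites, proteasome genes 4, 2 and 0, and initiation factor genes 2, 3 and 1. Mitochondrial ribosomal protein genes had 3, 3 and 3, RNA polymerase genes 1, 2 and 1, and Mediator genes 1, 1 and 2. Over all members 40.5% were wider and 25% narrower. With so few sites in a class, nothing particular to it is read from its counts. Of the classes described above, the widest chaperone member was the promoter of DNAJB4 and FUBP1 (649 and 749 bp), the widest ribosomal protein member that of RPL36 with HSD11B1L and MICOS13 (749 and 699 bp), and the widest respiratory chain member that of NDUFA11 (849 bp in both).

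Of 544 zinc finger genes 54 had a member (9.93%, 7.55 to 12.8%), with an interval that included 8.87%, and 16.2% (12.4 to 20.6%) of those with a shared promoter pair had a broad one, below 22.7%. The widest of them was ZNF473, which shares its promoter with VRK3 (749 and 799 bp). Histone genes, whose copies are nearly identical so that assignment is uncertain, had 4 of 90 (4.44%, 1.22 to 11.0%), among them the variant H2AZ2 with 849 and 1099 bp. HOX genes had 2 of 39 (5.13%, 0.627 to 17.3%), with HOXC13 at 449 and 599 bp. The intervals of histone and HOX genes included 8.87%. Olfactory receptor genes had 0 of 415 (up to 0.885%). Genes that the study had listed from expression arrays of the same cell line as changing with SF-1 dosage had few members. There were 3 of 123 genes lower on SF-1 knockdown (2.44%, 0.506 to 6.96%) and 3 of 78 genes higher on knockdown (3.85%, 0.800 to 10.8%). On overexpression, 9 of 178 higher genes (5.06%, 2.34 to 9.38%) and 3 of 87 lower genes (3.45%, 0.717 to 9.75%) had a member. Only the genes lower on knockdown had an interval below 8.87% of all coding genes. The widest in each list were FAM72D (649 bp in both, a member of a family of near-identical copies), ACP3 (549 bp in both), NECTIN3 (649 and 599 bp) and SLC44A1 (699 and 799 bp).

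Members stood early in the deposited lists, whose numbering fell with width, so this place is a description. Their median place was 5.25% of the way down the basal list and 5.06% down the overexpression list, and 69.1% and 68.8% were in the first 10%. Narrower shared promoter pairs had 16.8% and 19.0% there, and broad shared pairs away from coding starts 48.0% and 38.3%. The quantity that sets the numbering is not given in the sources used here.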

How the data were processed

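FAIRE libraries from H295R/TR SF-1 cells, 1 per condition, were used. The authors deposited, for each library, the coordinates of called sites on hg19, a running number and a score, which was 1000 at every site and held no peak height. The submitters' processing notes name CASAVA 1.8. The aligner, peak caller and threshold for FAIRE are not given in the sources used here, nor is read depth: the methods name ELAND and CisGenome for immunoprecipitated DNA, and the FAIRE track names end in .cod, as CisGenome peak files do. Starts were converted from 0-based to 1-based, and sites were paired on overlap.

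Coding transcript starts came from GENCODE release 44 mapped to GRCh37, and for 342 coding genes without a coding transcript the gene 5' end was used. Motifs were exact matches on both strands. Shares have Clopper-Pearson and differences Newcombe intervals (Python 3.11.15, SciPy 1.17.1, NumPy 2.4.6, pysam 0.24.0). The pairing of sites was tested on simulated sites and the Newcombe interval on a textbook example.

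Members and lists were chosen with earlier results of these data known. Named were the 5 widest members, the 5 with the largest gain and loss, the 5 widest bidirectional and SF-1 motif members, and the widest of each class, ties by chromosome and start. The other members named, the NF-Y detail beyond the share and the cholesterol stretches were chosen after values were seen. Sequences were the 6 widest bidirectional members with an exon-free stretch of at most 300 bp between the starts (2 are printed). That stretches reach 60 bp and lie within both sites was required later. The cyclin and translation initiation factor classes were trimmed after values were seen. Alternatives covered overlap, width, distance, choice of starts, centre and merging. A few members counted in the totals are not reported here by name.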

Additional observations from a re-analysis of the deposited data

How the results depend on the processing

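Of 74 recomputed values, 60 kept their direction, their side of 0 and, for shares and numbers, stayed near the main value. The excess of NF-Y matches over narrower pairs ranged from 15.8 to 25.5 points and that of bidirectional promoters from 2.05 to 6.39 points, with intervals above 0 under every alternative run. The excess of members with a GC content of at least 60% was 2.41 points where 50% of both sites had to overlap, 0.536 within 500 bp of a start and 1.29 with gene 5' ends only, each with an interval that included 0, and it reversed to -1.03 with a minimum width of 499 bp and to -0.359 with sites within 500 bp merged. The SF-1 motif difference reversed to 0.191 with gene 5' ends only and to 0.336 in pairs of at least 60% GC, again with intervals that included 0. A minimum width of 499 bp left 565 pairs, of which 68.1% had a GC content of at least 60% and 57.7% an NF-Y match. With gene 5' ends only, 12.0% were bidirectional. With merging, 28.5% were narrower on overexpression and 45.4% had an NF-Y match, and in pairs of at least 60% GC 49.3% had one. The cause of these changes was not tested. The restriction to 60% GC, the window at the nearest start and the NF-Y alternatives were chosen after seeing the data. No paired analysis was possible because each condition had 1 FAIRE library and the labels give no replicate numbers. Depth is unknown, so in the change of width depth and condition cannot be told apart.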

Other observations

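The members were unevenly spread over the 23 chromosomes. On chromosome 19, which is rich in genes, 205 members were found, 28% (24.7 to 31.4%) of its 733 shared promoter pairs, and on chromosome 9 there were 104, 27.4% (22.9 to 32.1%) of 380. The share was 12.0% (7.65 to 17.5%) of 184 pairs on chromosome X and 12.2% (9.22 to 15.7%) of 418 on chromosome 2, where all chromosomes together had 19.4%. Intervals lay above that value on 2 chromosomes and below it on 4, the others of which were 6 and 20.

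Another site of the same list lay within 1 kb of the member in 17.6% of members for the basal and 17.8% for the overexpression sites. Of the 1782 genes, 35 had 2 or more members, and the most for 1 gene was 3. Members with a CREB/ATF match, 64 in all, were wider in the overexpression list in 53.1% of cases (40.2 to 65.7%) and those without in 40% (37.4 to 42.6%), and the 34 with an AP-1 match in 52.9% (35.1 to 70.2%). The intervals of the groups with and without a match overlapped for both motifs.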
